A study of Mus musculus with 4 samples.

Results

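The miRNAs described here are 3 mature miRNAs for which red blood cells are the best known source: miR-451a, miR-144-3p and miR-486-5p. They were chosen by name for that source, with earlier results of these data known. In the count tables they carry 4 of 668 names, mmu-miR-451a, mmu-miR-144-3p, mmu-miR-486a-5p and mmu-miR-486b-5p, and the last 2 names were summed as miR-486-5p. The study sequenced small RNA of exosomes from the small intestinal epithelium (SI-Exos) and from serum, isolated by ultracentrifugation, of male C57BL/6J mice on standard chow. The groups described here were 3m-SI-Exos, 18m-SI-Exos, 3m-serum-exos and 18m-serum-exos, named for 3 and 18 months of age, with 1 library per group and no further treatment. The paper also reports SI-Exos of ages between these. For SI-Exos the intestine was everted and the epithelium was released with a chelating buffer, and blood was drawn by cardiac puncture. The number of mice behind each library was not stated in the labels or the paper. With 1 library per group no difference has a replicate check, no p-value was computed, and every interval covers counting error only.

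Red blood cells of mammals lose their nucleus but keep a large store of miRNAs made during erythroid maturation. miR-144 and miR-451a are cut from 1 transcript that the erythroid factor GATA1 switches on, and miR-451a is one of the most abundant miRNAs of blood. Its hairpin is too short for Dicer and is cut by Argonaute 2 instead. miR-486-5p lies within Ank1, which encodes a cytoskeletal protein of the red blood cell membrane, and it is also made in striated muscle. In serum and plasma, miR-451a set against miR-23a-3p, a miRNA low in red blood cells, is a customary gauge of red blood cell content.

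The mature sequences are shown because the counting rests on them and because the last 2 names cannot be separated by sequence. They are the annotated sequences in the deposited tables, 5′ to 3′, with the seed (bases 2 to 8) in capitals.
miR-451a: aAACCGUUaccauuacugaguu
miR-144-3p: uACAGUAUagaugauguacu
miR-486-5p: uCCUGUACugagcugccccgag
The 3 seeds differ, and no other name whose entry holds a sequence shares one of them. miR-451a and miR-486-5p are 22 bases long and miR-144-3p is 20 bases long. The sequences of miR-451a and miR-144-3p are the same in RefSeq (GRCm38). The sequence of miR-486-5p comes from the entry for miR-486b-5p, since the entry for miR-486a-5p holds none, and it occurs once in each of the hairpins of mir-486a and mir-486b.

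The hairpins, from the same tables and with the mature miRNA in capitals, show how the 3 differ in position.
mir-451a: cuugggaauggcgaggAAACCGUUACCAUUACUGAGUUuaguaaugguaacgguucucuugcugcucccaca
mir-144: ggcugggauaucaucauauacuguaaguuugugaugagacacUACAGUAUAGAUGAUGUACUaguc
mir-486a: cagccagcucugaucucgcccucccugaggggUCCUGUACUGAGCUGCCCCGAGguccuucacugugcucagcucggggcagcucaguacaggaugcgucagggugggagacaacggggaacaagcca
mir-486b: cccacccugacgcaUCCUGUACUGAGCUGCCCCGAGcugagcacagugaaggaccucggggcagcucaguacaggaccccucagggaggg
In the predicted fold of mir-451a (72 bases, minimum free energy -43.3 kcal/mol), the mature miRNA takes positions 17 to 38 and includes the 4 bases of the loop. Of its 22 bases, 17 are paired in the 5′ arm and 5 are unpaired. In mir-144 (66 bases, -28.6 kcal/mol), miR-144-3p lies in the 3′ arm with 19 bases paired and none in the loop. In mir-486a and mir-486b (128 and 90 bases), all 22 bases of miR-486-5p are paired and none lies in the loop. All 90 bases of mir-486b are the reverse complement of bases within mir-486a.

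In GRCm38, Mir144 lies at chr11:78073005-78073070 and Mir451a at chr11:78073170-78073241, both on the plus strand and 99 bases apart. Mir451b occupies the same 72 bases as Mir451a on the minus strand, and miR-451b is listed in neither table. Mir486 lies at chr8:23142555-23142682 on the plus strand, and Mir3107, the gene of mir-486b, at chr8:23142573-23142662 on the minus strand. Both lie in an intron of the protein-coding gene Ank1 and of the antisense gene Gm15816.

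The libraries held 212215 miRNA reads in 3m-SI-Exos, 71353 in 18m-SI-Exos, 832002 in 3m-serum-exos and 778237 in 18m-serum-exos, so that 1 read stood for 4.71, 14.0, 1.20 and 1.28 CPM, the count scaled to the miRNA reads of its library. The miRNA reads were 1.14% and 0.411% of the library total behind the authors' RPM in the younger and older SI-Exos, and 5.89% and 5.31% in serum. The SI-Exos carried the labelled epithelial markers: the 8 epithelial miRNAs (miR-192, miR-194, miR-215, miR-200 family) summed to 26.7% and 8.26% of miRNA reads at 3 and 18 months, against 1.68% and 0.660% in serum. miR-200b-3p was at 0 reads in the 18m-SI-Exos library. The most abundant miRNAs of 3m-SI-Exos were miR-429-3p (13.7%), let-7f-5p (11.3%) and let-7c-5p (8.45%). Those of 18m-SI-Exos were miR-30e-3p (19.8%), miR-194-1-3p (14.2%) and miR-215-3p (9.87%). The last 2 are not among the 8 epithelial miRNAs summed here. The liver miRNA miR-122-5p took 38.4% of the reads of the 3m-serum-exos library and 2.65% of the 18m-serum-exos library.

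The red blood cell miRNAs together made up 0.632% of miRNA reads in 3m-SI-Exos, 3.78% in 18m-SI-Exos, 22.0% in 3m-serum-exos and 54.0% in 18m-serum-exos. Nearly all of these reads were miR-451a, with 1332, 2644, 179389 and 408945 reads in the same order. Its level was 6277 CPM (exact 95% interval 5945 to 6622) in 3m-SI-Exos and 37055 CPM (35681 to 38467) in 18m-SI-Exos. In serum exosomes it was 215611 CPM (214728 to 216497) at 3 months and 525476 CPM (524366 to 526586) at 18 months. The 4 intervals did not overlap, and the order of the levels was 3m-SI-Exos, 18m-SI-Exos, 3m-serum-exos, 18m-serum-exos. miR-451a ranked 25 in 3m-SI-Exos and 6 in 18m-SI-Exos among all miRNAs, 2 in serum at 3 months, behind miR-122-5p, and 1 in serum at 18 months. In 18m-serum-exos it took 52.5% of all miRNA reads, and the next miRNA, miR-16-5p, took 4.50%.

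miR-486-5p was the second of the 3 in every library, although its interval overlapped that of miR-144-3p in 3m-SI-Exos. It had 6, 47, 3385 and 11308 reads, or 28.3 CPM (10.4 to 61.5) and 659 CPM (484 to 876) in the younger and older SI-Exos and 4069 CPM (3933 to 4208) and 14530 CPM (14266 to 14799) in serum exosomes. Its 4 intervals did not overlap either, and its levels followed the same order as those of miR-451a. It ranked 227 in 3m-SI-Exos, 73 in 18m-SI-Exos, 27 in 3m-serum-exos and 14 in 18m-serum-exos.

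miR-144-3p, which shares its transcript with miR-451a, was scarce in all libraries, with 4, 9, 105 and 138 reads. Its level was 18.8 CPM (5.14 to 48.3) in 3m-SI-Exos, 126 CPM (57.7 to 239) in 18m-SI-Exos, 126 CPM (103 to 153) in 3m-serum-exos and 177 CPM (149 to 209) in 18m-serum-exos. The 3m-SI-Exos library was the lowest, and the intervals of 18m-SI-Exos overlapped those of both serum libraries. Its other arm, miR-144-5p, had 0, 3, 7 and 22 reads. The 0 of 212215 reads in 3m-SI-Exos allows up to 3 reads, or 14.1 CPM.

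**Figure D1:**
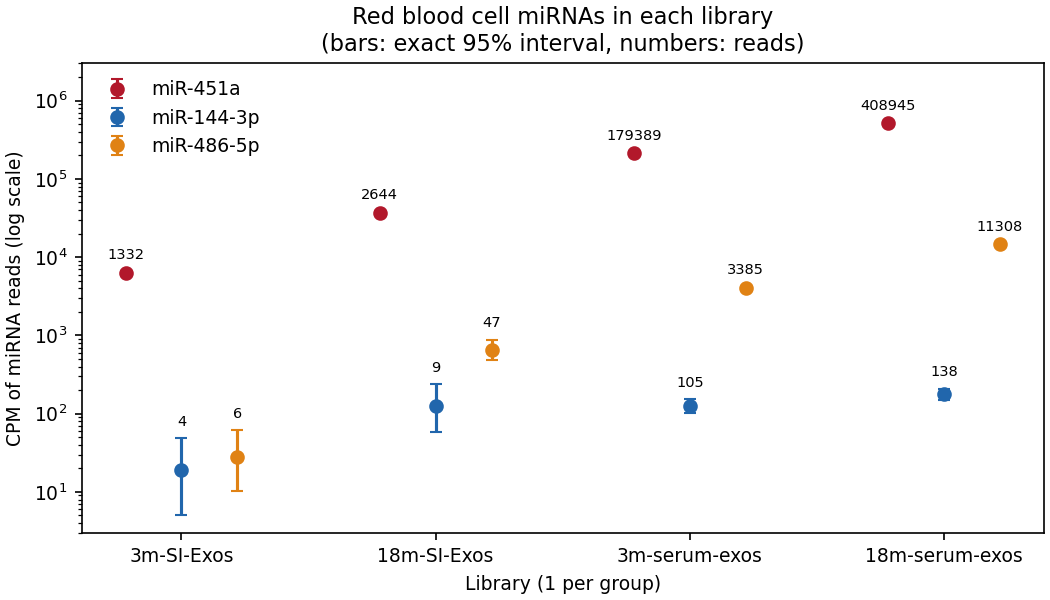
Level of miR-451a (red), miR-144-3p (blue) and miR-486-5p (orange) in the 4 libraries, in CPM of miRNA reads on a log axis. Points are single libraries, bars are exact 95% intervals for counting error, and the numbers are reads. miR-451a stands highest in every library, from 6277 to 525476 CPM, and miR-144-3p lowest, from 18.8 to 177 CPM.

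The first comparison was that of 18 with 3 months in SI-Exos. The CPM of miR-451a was 5.90 times as high at 18 months (5.53 to 6.31), and that of miR-486-5p was 23.3 times as high (9.94 to 66.7), the latter from 6 reads at 3 months. A miRNA was taken as measured where 1 of the libraries compared held 10 reads of it or more. It was called where its ratio was at least 2-fold, or 1 library was at 0 reads, and the interval excluded 1. By this rule, miR-451a and miR-486-5p were called higher, beside 62 of all 213 miRNAs measured in SI-Exos, or 29.1%, with 70 called lower. miR-486-5p reached 10 reads only at 18 months, where it was high, so its call had to go that way and the count of members called supports nothing. The median log2 ratio of all measured miRNAs was -0.46, and 32 measured miRNAs had a larger log2 ratio than miR-451a and 10 a larger one than miR-486-5p. miR-144-3p, with 4 and 9 reads, fell short of the minimum of 10, and its ratio was 6.69 (1.87 to 29.7).

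The authors' RPM refers to all reads of a library and not to the miRNA reads alone. On that scale the SI-Exos ratios are divided by 2.78, to 2.13 for miR-451a and 8.39 for miR-486-5p, both still called, while 31 miRNAs were called higher and 131 lower. With size factors from DESeq2 the ratio of miR-451a was 4.16, and 50 miRNAs were called higher and 100 lower. With edgeR's TMM factors and with totals that leave out either the 5 most abundant miRNAs or the members themselves, the ratios of miR-451a and miR-486-5p lay within 1.5 times those on the CPM scale.

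In serum exosomes, miR-451a was 2.44 times as high at 18 months (2.42 to 2.45) and miR-486-5p 3.57 times (3.44 to 3.71), and both were called higher. miR-144-3p was not called, at 1.41 times (1.08 to 1.83). The 2 of 3 members called stand beside 64 of 250 measured miRNAs called higher in serum, or 25.6%, with 46 called lower. The median log2 ratio was 1.29 for the 3 members and 0.37 for all measured miRNAs. Larger log2 ratios than those of miR-451a, miR-144-3p and miR-486-5p were found for 52, 109 and 22 of the measured miRNAs.

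The serum ratios hung on what the reads were set against, because miR-122-5p filled 38.4% of the 3-month library and the red blood cell miRNAs filled 54.0% of the 18-month library. With totals that leave out miR-122-5p, an alternative chosen after seeing the data, miR-451a was 1.54 times as high at 18 months and lost its call, miR-486-5p was 2.26 times as high and kept it, and miR-144-3p was below 1 at 0.889 times. With totals that leave out the members, the ratios were 4.14, 6.06 and 2.38, and all 3 were called. With totals that leave out both, miR-451a was 2.23 times and miR-486-5p 3.26 times as high, and both were called. With totals without the 5 most abundant miRNAs, miR-451a was 1.86 times as high and not called. Over all measured miRNAs, 22 were called higher and 85 lower without miR-122-5p, 132 and 22 without the members, and 51 and 50 without both. Splits of 51 and 51 with the authors' RPM, 50 and 52 with TMM factors, 51 and 50 with DESeq2 size factors and 37 and 67 without the 5 most abundant also differed from the split on the CPM scale.

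**Figure D2:**
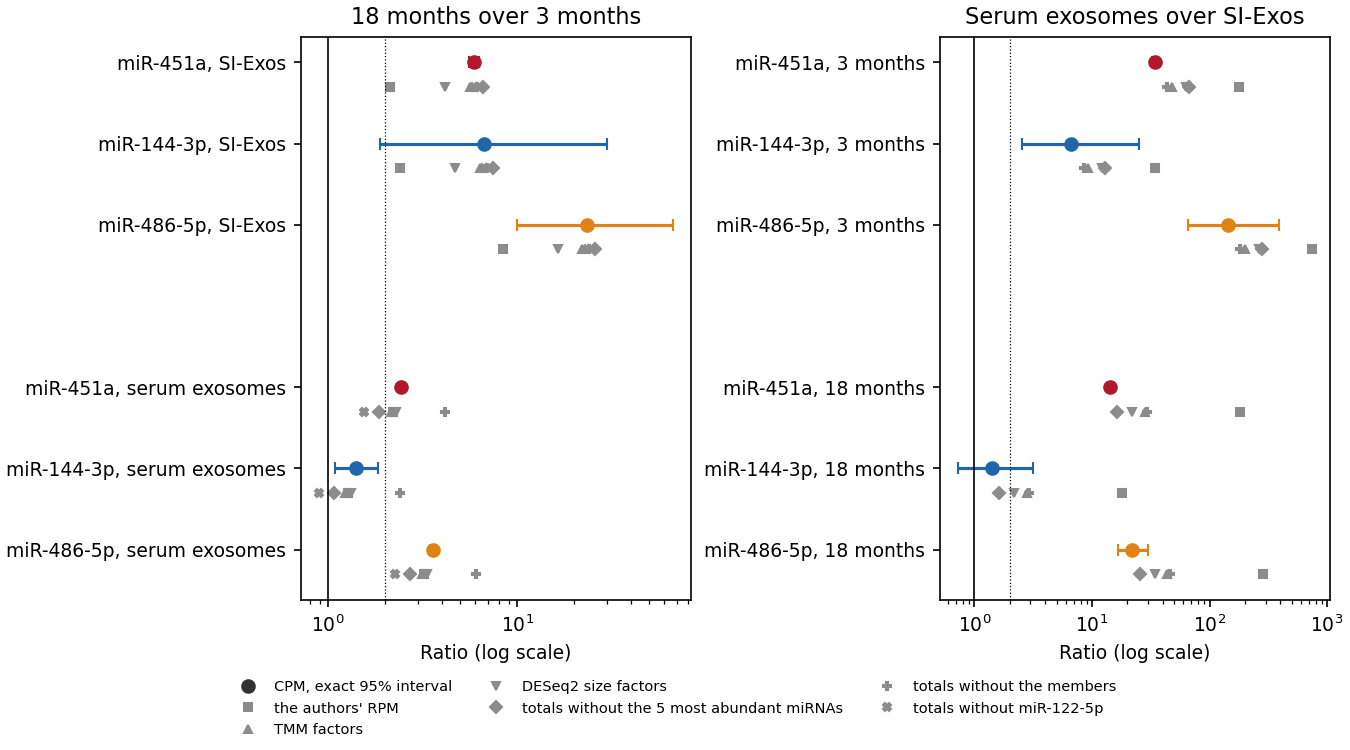
Ratios of 18 to 3 months (left) and of serum exosomes to SI-Exos (right) for the 3 miRNAs, on log axes. Coloured points are CPM ratios with exact 95% intervals for counting error, grey marks below them are the ratios under other scalings, the solid line is 1 and the dotted line 2. On the left, the CPM ratio of miR-451a is 5.90 in SI-Exos and 2.44 in serum exosomes, where the grey marks run from 1.54 to 4.14.

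Set side by side, the age ratio of miR-451a in SI-Exos was 2.42 times that in serum exosomes (2.27 to 2.59), that of miR-486-5p 6.52 times (2.79 to 15.3) and that of miR-144-3p 4.76 times (1.43 to 15.9), by counting error alone. With the authors' RPM, miR-451a had a ratio of 2.13 in SI-Exos and 2.20 in serum exosomes, so the larger ratio in SI-Exos was not seen on that scale. With totals without the members the ratios of miR-451a were 6.10 and 4.14.

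**Figure D3:**
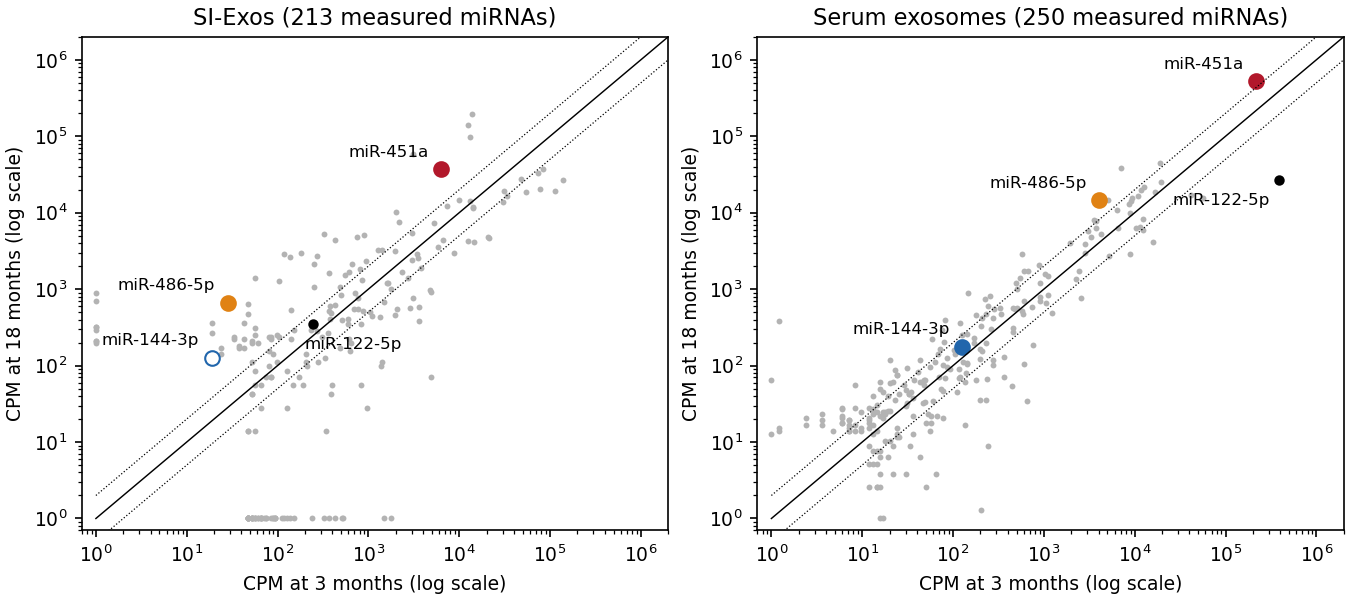
CPM at 3 months (horizontal) and 18 months (vertical) of all measured miRNAs in SI-Exos (left, 213) and serum exosomes (right, 250), on log axes, with values under 1 CPM drawn at 1. Each grey point is 1 miRNA, coloured points are the red blood cell miRNAs (open where not measured), the black point is miR-122-5p, the solid line is equality and the dotted lines are 2-fold. miR-451a and miR-486-5p lie above the upper dotted line in both panels, and miR-122-5p lies far below the line of equality in serum exosomes, with 38.4% of reads at 3 months and 2.65% at 18 months.

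The second comparison was that of serum exosomes with SI-Exos of the same age, which uses the same 4 libraries and known miRNAs alone. At 3 months the CPM of miR-451a was 34.4 times as high in serum exosomes (32.5 to 36.3), that of miR-144-3p 6.70 times (2.54 to 25.0) and that of miR-486-5p 144 times (66.0 to 392). All 3 were called higher in serum exosomes, beside 77 of 240 measured miRNAs, or 32.1%, with 91 called lower. miR-144-3p and miR-486-5p, with 4 and 6 reads in 3m-SI-Exos, were measured only through the serum library, where they were high, so nothing is read from that count. One measured miRNA had a larger log2 ratio than miR-486-5p, and 9 had a larger one than miR-451a.

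At 18 months, miR-451a was 14.2 times as high in serum exosomes (13.6 to 14.7) and miR-486-5p 22.1 times (16.6 to 30.0). miR-144-3p, with 9 reads in SI-Exos, was not called, at 1.41 times (0.719 to 3.14). These 2 of 3 members stand beside 77 of 230 measured miRNAs called higher in serum exosomes, or 33.5%, with 62 called lower. The call of miR-144-3p turned on the scaling, and it was called with TMM factors (2.78), DESeq2 size factors (2.19), totals without the members (2.94) and the authors' RPM (18.2). With the authors' RPM the ratios of miR-451a were 177 at 3 months and 183 at 18 months, and 150 and 188 miRNAs were called higher in serum exosomes and 43 and 26 lower.

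Ratios of one miRNA to another within a library do not depend on a library total. For every 1000 reads of miR-451a there were 4.50 reads of miR-486-5p (1.65 to 9.83) in 3m-SI-Exos, 17.8 (13.0 to 23.7) in 18m-SI-Exos, 18.9 (18.2 to 19.5) in 3m-serum-exos and 27.7 (27.1 to 28.2) in 18m-serum-exos. The 3m-SI-Exos library stood lowest, 18m-SI-Exos and 3m-serum-exos overlapped, and 18m-serum-exos stood highest. The odds of a miR-486-5p read against a miR-451a read were 3.95 times as high at 18 months in SI-Exos (1.68 to 11.3) and 1.47 times in serum exosomes (1.41 to 1.52).

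For every 1000 reads of miR-451a there were 3.00 reads of miR-144-3p (0.817 to 7.71) in 3m-SI-Exos and 3.40 (1.55 to 6.47) in 18m-SI-Exos, but 0.585 (0.479 to 0.709) in 3m-serum-exos and 0.337 (0.283 to 0.399) in 18m-serum-exos. Both SI-Exos libraries thus stood above both serum libraries, and their intervals did not overlap those of serum exosomes. The odds of miR-144-3p against miR-451a were 1.13 times as high at 18 months in SI-Exos (0.316 to 5.05), which the 4 and 9 reads cannot tell from 1. In serum exosomes they were 0.577 times as high (0.444 to 0.750). Against SI-Exos of the same age, the odds in serum exosomes were 0.195 times as high at 3 months (0.0737 to 0.730) and 0.0991 times at 18 months (0.0507 to 0.222). The members of 1 transcript were therefore not in 1 ratio across the libraries.

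miR-16-5p, a miRNA abundant in red blood cells and in many other cells, had 546 reads for every 1000 of miR-451a in 3m-SI-Exos, 78.3 in 18m-SI-Exos, 88.9 in 3m-serum-exos and 85.7 in 18m-serum-exos. The 3m-SI-Exos library stood apart from the other 3. The odds of miR-16-5p against miR-451a were 0.144 times as high at 18 months in SI-Exos (0.121 to 0.170) and 0.964 times in serum exosomes (0.946 to 0.984). At 18 months, serum exosomes and SI-Exos could not be told apart by this ratio (1.09 times, 0.950 to 1.27).

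**Figure D4:**
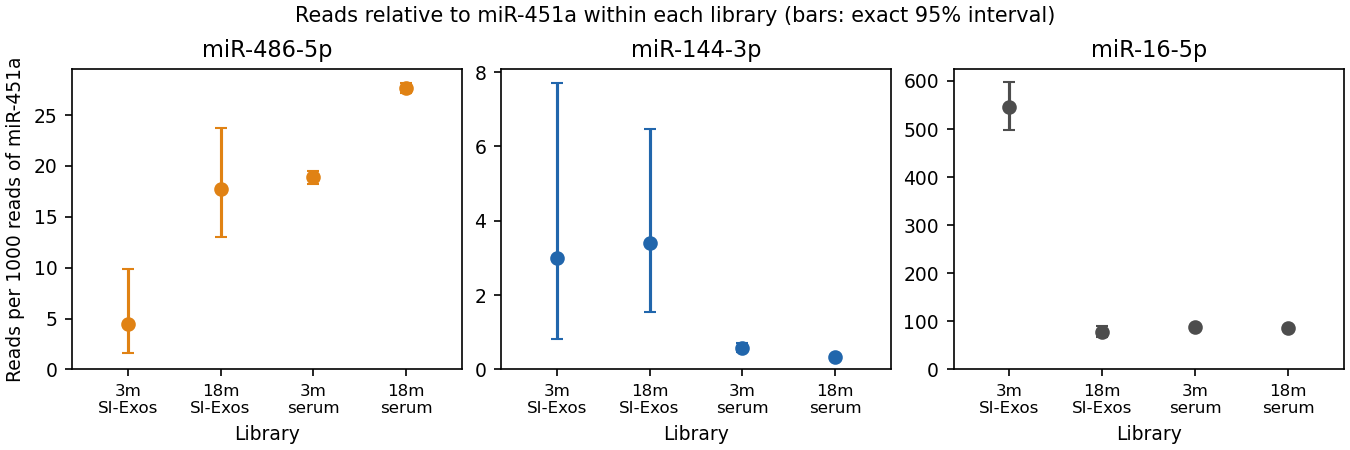
Reads of miR-486-5p, miR-144-3p and miR-16-5p for every 1000 reads of miR-451a in each library, on linear axes that start at 0. Points are single libraries and bars are exact 95% intervals for counting error. miR-144-3p is higher in both SI-Exos libraries (3.00 and 3.40) than in serum exosomes (0.585 and 0.337), while miR-16-5p is high in 3m-SI-Exos alone (546).

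Each read of miR-23a-3p, whose reads numbered 297, 229, 10142 and 6469, was accompanied by 4.48 reads of miR-451a in 3m-SI-Exos, 11.5 in 18m-SI-Exos, 17.7 in 3m-serum-exos and 63.2 in 18m-serum-exos. The odds of miR-451a against miR-23a-3p were 2.57 times as high at 18 months in SI-Exos (2.13 to 3.11) and 3.57 times in serum exosomes (3.46 to 3.69). The CPM of miR-23a-3p itself was 2.29 times as high at 18 months in SI-Exos (1.92 to 2.73) and 0.682 times in serum exosomes (0.661 to 0.704), so it moved both odds in opposite directions. The odds of miR-486-5p against miR-23a-3p were 10.1 times as high at 18 months in SI-Exos (4.22 to 29.5) and 5.24 times in serum exosomes (4.98 to 5.50). Against this miRNA the age difference of miR-451a was thus the larger one in serum exosomes, and that of miR-486-5p was the larger one in SI-Exos, with overlapping intervals. Whether red blood cell content of the samples differed between ages was not tested otherwise, and in bulk exosome RNA more particles of red blood cell origin cannot be told apart from more miRNA per particle.

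The names miR-486a-5p and miR-486b-5p had 2 and 4 reads in 3m-SI-Exos, 37 and 10 in 18m-SI-Exos, 3258 and 127 in 3m-serum-exos and 9847 and 1461 in 18m-serum-exos. The share of the b name was 66.7%, 21.3%, 3.75% and 12.9%. In serum exosomes the odds of the b name were 3.81 times as high at 18 months (3.16 to 4.62), and in SI-Exos 0.142 times (0.0113 to 1.15). How the authors' counting divided reads between both hairpins, which share the mature sequence, was stated in neither the labels nor the paper. The age ratio in serum exosomes was 3.23 for the a name and 12.3 for the b name, and in SI-Exos 55.0 and 7.44, so that single names gave different sizes and the sum was used.

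The opposite arms, miR-486a-3p and miR-486b-3p, begin with the same 20 bases and share a seed. They had 118 and 148 reads in 3m-serum-exos and 204 and 354 in 18m-serum-exos, but no more than 1 read each in either SI-Exos library. Together they came to 78.6 reads for every 1000 of miR-486-5p at 3 months (69.1 to 89.1) and 49.3 at 18 months (45.2 to 53.7) in serum exosomes, odds 0.628 times as high (0.539 to 0.733).

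The other 7 miRNAs of the red blood cell list were miR-144-5p, miR-16-5p, miR-15a-5p, miR-92a-3p, miR-25-3p, miR-185-5p and miR-363-3p, most of which other cells make too. In serum exosomes at 18 months, 64 of all 250 measured miRNAs (25.6%) were called higher and 46 lower (median log2 ratio 0.37). Of the 6 measured on the list, 3 were called higher and 0 lower (median log2 ratio 0.83). miR-16-5p was 2.35 times as high (2.31 to 2.40) and miR-92a-3p, of the miR-17 to 92 cluster, 2.04 times (1.92 to 2.16), while miR-25-3p was not called, at 1.11 times (1.09 to 1.14). The third was miR-144-5p, at 3.36 times (1.39 to 9.31) from 7 and 22 reads, and so measured only through the 18-month library. Over the other scalings the number called higher ran from 0, with totals without miR-122-5p, to 4, with totals without the members. In SI-Exos, 62 of all 213 measured miRNAs (29.1%) were called higher and 70 lower (median log2 ratio -0.46). Of the 5 measured on the list, none was called higher and 1 was called lower (median log2 ratio -0.32). That one was miR-25-3p, with 767 reads at 3 months and 27 at 18 months, or 0.105 times as high (0.0685 to 0.154). miR-16-5p was not called in SI-Exos, at 0.847 times (0.722 to 0.990). With the authors' RPM all 5 were called lower in SI-Exos.

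Between sources, all 5 measured miRNAs of that list were called higher in serum exosomes at 3 months and 5 of 6 at 18 months, with median log2 ratios of 2.20 and 3.28. Over all measured miRNAs, 77 of 240 (32.1%) and 77 of 230 (33.5%) were called higher, with median log2 ratios of 0.10 and 0.82. At 18 months miR-15a-5p and miR-185-5p were measured through the serum library alone, with 8 and 7 reads in SI-Exos. The list summed to 0.808% of miRNA reads in 3m-SI-Exos and 0.411% in 18m-SI-Exos, and to 3.94% and 6.96% in the serum libraries. miR-25-3p was 4.60 times as high in serum exosomes at 3 months (4.28 to 4.96) and 48.9 times at 18 months (33.6 to 74.2).

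A list for white blood cells and platelets (miR-223-3p, miR-142a-3p, miR-142a-5p, miR-150-5p and miR-126a-3p) was set beside these for the other cells of blood. Its miRNAs are called markers here. The markers summed to 0.793% of miRNA reads in 3m-SI-Exos, 1.37% in 18m-SI-Exos, 2.40% in 3m-serum-exos and 3.44% in 18m-serum-exos. Most of these reads were miR-126a-3p, with 0.740%, 1.23%, 1.96% and 2.50% in that order, so the sums mainly follow that miRNA. Whether the reads of miR-126a-3p came from blood cells was not tested. The ratio of 18 to 3 months of miR-126a-3p was 1.67 in SI-Exos and 1.28 in serum exosomes, not called in either. Beside 62 of all 213 measured miRNAs (29.1%) called higher in SI-Exos at 18 months, 2 of the 3 measured markers were called higher and 0 lower. These were miR-223-3p, a myeloid and platelet miRNA, with 4 reads at 3 months and 19 at 18 months, so measured only through the latter, at 14.1 times (4.69 to 57.1), and miR-150-5p, of lymphocytes, at 2.17 times (1.60 to 2.95). miR-150-5p lost its call with DESeq2 size factors (1.53) and with the authors' RPM, where its ratio was below 1 (0.783), while miR-223-3p kept it at 9.95 and 5.09. miR-142a-5p was at 0 reads in 3m-SI-Exos and at 1 read in 18m-SI-Exos, and miR-142a-3p was at 4 and 3 reads. In serum exosomes, 1 of the 5 markers was called higher, beside 64 of all 250 measured miRNAs (25.6%). That marker was miR-223-3p, with 473 and 2255 reads, at 5.10 times (4.61 to 5.64). With totals without the members, 4 of the 5 were called higher, beside 132 of all 250. Under each of the other scalings 1 was. The epithelial list went the other way in SI-Exos, but it leaves out miR-194-1-3p and miR-215-3p. These held 14.2% and 9.87% of the 18m-SI-Exos reads, and neither was among the 3 most abundant miRNAs of 3m-SI-Exos. At 18 months 0 of the 8 miRNAs on the epithelial list were called higher and 5 lower, beside 70 of all 213 measured miRNAs called lower. The part of other blood cells and of epithelial content in the ratios of the red blood cell miRNAs was not tested.

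Because miR-486-5p is also made in striated muscle, 6 muscle miRNAs (miR-1a-3p, miR-133a-3p, miR-133b-3p, miR-206-3p, miR-208a-3p and miR-499-5p) were set beside it, a list chosen after its values were seen. They summed to 0.483% of miRNA reads in 3m-SI-Exos, 0.164% in 18m-SI-Exos, 0.748% in 3m-serum-exos and 0.785% in 18m-serum-exos. miR-208a-3p had no entry for SI-Exos, which was taken as 0 reads, and miR-133b-3p was at 0 reads in both libraries of 3 months. In SI-Exos at 18 months miR-133a-3p, with 9 and 26 reads, was called higher at 8.59 times (3.90 to 20.8), and miR-206-3p, with 8 and 13 reads, at 4.83 times (1.86 to 13.5), both measured only through the 18-month library. miR-1a-3p, the most abundant of the 6, was called lower, with 1002 and 69 reads, at 0.205 times (0.158 to 0.262). These were the 3 measured there, beside 62 of all 213 measured miRNAs (29.1%) called higher and 70 lower. With the authors' RPM, 1 of the 3 was called higher and 1 lower. In serum exosomes miR-206-3p was called higher at 3.23 times (2.76 to 3.80), and miR-1a-3p, miR-133a-3p and miR-499-5p were not called. This was 1 of 4 measured, beside 64 of all 250 measured miRNAs (25.6%). The part of muscle in the ratios of miR-486-5p was not tested.

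The pattern of miR-451a over the 4 libraries was compared with that of 269 other known miRNAs, as the root mean square difference of log2 CPM centred on each miRNA's mean. The 5 nearest were miR-486a-3p (0.30), miR-140-3p (0.33), miR-486b-3p (0.35), miR-467c-5p (0.42) and miR-128-3p (0.44), all with at most 3 reads in each SI-Exos library. miR-486-5p came at place 19 (0.95), and miR-144-3p at place 44 (1.51). With at least 10 reads required in every library, 80 miRNAs were compared and none of these 5 remained, so the list of neighbours is set by miRNAs with few reads. The distances are a description over 4 libraries that share a source or an age in pairs.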

How the data were processed

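Small RNA libraries of exosomes from 3m-SI-Exos, 18m-SI-Exos, 3m-serum-exos and 18m-serum-exos were analysed, with groups taken from the labels. The authors counted reads per mature miRNA and deposited read counts, together with RPM (each count relative to all reads of the library, not its miRNA reads alone). Bowtie2 2.2.9 and GRCm38 are named in the submitters' processing notes, and how reads matching several hairpins were assigned was not stated. The labels name an MGI library kit and DNBSEQ sequencing, whereas the paper's methods name the VAHTS kit for SI-Exos. The deposited log2 ratios, p-values and FDR of the authors' comparison were not used.

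CPM and ratios were computed from the counts. Intervals of levels are exact binomial and those of ratios come from the conditional binomial of the counts (Clopper-Pearson, 95%). Those of odds compared between libraries are exact conditional 95% intervals of the odds ratio. The intervals of an age ratio in SI-Exos over that in serum exosomes are 95% normal approximations on the log scale. A floor of 3 reads was used for a count of 0, and 0.5 counts were added before log2. In the comparison of sources, a miRNA without an entry in a table was taken as 0 reads. Scaling alternatives were TMM factors (edgeR 4.0.16), size factors (DESeq2 1.42.0), the authors' RPM and reduced totals. The calling rule was run on simulated counts with known ratios and counting error alone, which cannot check differences between single libraries. Folds were predicted with RNAfold 2.7.2, and gene positions come from an annotation of GRCm38. The analysis used Python 3.11.15, pandas 2.3.3, numpy 2.4.6, scipy 1.17.1, matplotlib 3.10.9 and R 4.3.3.

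The miRNAs described, the lists and the alternatives were chosen with earlier results of these data known. The miRNAs named in the text are the members, their other arms, the fixed lists of other red blood cell, epithelial, white blood cell and platelet, and liver miRNAs, a striated muscle list added after the values were seen, miR-23a-3p, the most abundant miRNAs of a library and the 5 nearest to miR-451a.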

Additional observations from a re-analysis of the deposited data

Results flagged for a closer look

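Among the other red blood cell miRNAs, 2 had age ratios on opposite sides of 1 in the 2 sources, with each interval for counting error on its own side. miR-16-5p was 0.847 times as high at 18 months in SI-Exos and 2.35 times in serum exosomes, and these ratios stayed below and above 1 under all 7 other scalings, although its SI-Exos interval included 1 under 3 of them (without the 5 most abundant miRNAs, without the members, and without miR-122-5p and the members). miR-25-3p was 0.105 times as high in SI-Exos and 1.11 times in serum exosomes, where it was below 1 with TMM factors (0.974), without the 5 most abundant miRNAs (0.847) and without miR-122-5p (0.703). The serum interval of miR-25-3p included 1 with the authors' RPM (0.980 to 1.03) and without miR-122-5p and the members (0.992 to 1.04). With 1 library per group the difference between sources was not tested.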

How the results depend on the processing

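The ratios of miR-451a and miR-486-5p, and all ratios between sources, stayed above 1 under every alternative, and that of miR-144-3p in serum fell below 1 without miR-122-5p (0.889), an alternative chosen after seeing the data. In SI-Exos the age ratio of miR-451a was 2.13 with the authors' RPM, 4.16 with DESeq2 and 6.55 without the 5 most abundant miRNAs, and that of miR-486-5p was 8.39 with RPM and 7.44 from miR-486b-5p alone. At least 50 reads left 1 member called in SI-Exos. In serum exosomes, miR-451a was at 2.20 with RPM, 2.13 with TMM, 2.28 with DESeq2, 1.86 (not called) without the 5 most abundant, 4.14 without the members, 1.54 (not called) without miR-122-5p and 2.23 without both. miR-486-5p was at 3.22, 3.13, 3.34, 2.72, 6.06, 2.26 and 3.26 in that order, 3.23 from miR-486a-5p alone and 12.3 from miR-486b-5p alone. miR-144-3p was at 1.07 without the 5 most abundant and 2.38 (called) without the members. The members called in serum numbered 1 without the 5 most abundant or without miR-122-5p, and 0 at a ratio of at least 4. Over all miRNAs, 62 called higher in SI-Exos became 31 with RPM and 30 at 50 reads, 64 in serum became 37 without the 5 most abundant, 132 without the members, 22 without miR-122-5p, 18 at 4-fold and 38 at 50 reads, 77 between sources at 3 months became 150 with RPM and 116 without the 5 most abundant, and 77 at 18 months became 188 with RPM. Of the 5 nearest miRNAs, 3 were shared with 2 counts added and 0 with 10 reads in every library. A scaling changes only the divisor shared by every ratio of a comparison. No paired analysis was possible because each group holds 1 library. Depth limits miR-144-3p in SI-Exos, where it had 4 and 9 reads.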
